A study of Mus musculus with 6 samples.

Results

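The genes described here belong to the interferon response, the antiviral and antimicrobial programme that cells switch on when they sense interferon. A list of 31 genes was used, 23 of them known mainly as targets of type I interferon or as its sensors and transducers, 6 encoding GTPases known for induction by interferon gamma, and 2 encoding the transcription factors Irf1 and Irf8. A gene was measured where a probe set, the group of short probes that reports a transcript, had a platform annotation that named this gene alone. Of the 31 genes, 23 had such a probe set, 1 each, among the 14860 genes measured in this way. The measured members were 17 type I genes, 4 GTPases and the 2 transcription factors. Probe sets that name several genes were the only ones for Ifit3, Oas1a, Igtp and Iigp1, and no probe set in the annotation used named Isg15, Usp18, Ifi44 or Xaf1, so these 8 genes are not analysed here. The members were picked by name and not by any measured value, but with earlier results of these arrays known.

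RNA came from the livers of 6 mice after 8 weeks of a high fat diet, 1 exon array for each mouse. The 3 Control mice were littermates labelled wild type, with glucose intolerance and marked steatosis. The 3 DeltaHepKlf6 mice carried a knockdown of KLF6, a zinc finger transcription factor, restricted to hepatocytes, and were labelled as having improved glucose tolerance and less fat in the liver. The sources used here do not give sex, age, strain or the driver of the knockdown. All 6 mice shared the diet, so neither the effect of the diet nor that of any virus or interferon treatment was compared. All levels below are log2 values as deposited by the authors, on which 1 unit is a doubling. Each mouse is 1 replicate, so that p-values set the difference between groups against the spread between mice.

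Interferons are secreted proteins. Type I interferons act on nearly every cell through the receptor chains encoded by Ifnar1 and Ifnar2, and the kinases at this receptor activate a complex holding Stat2 and Irf9 that binds the interferon stimulated response element in promoters. Interferon gamma, made mainly by T and NK cells, acts through another receptor and through the gamma activated site in promoters, and it induces Irf1 and the immunity-related GTPases. The programmes overlap, since many promoters can be reached by both routes. In liver, hepatocytes, Kupffer cells and endothelial cells all respond, so that in whole tissue fewer cells of a type and less RNA per cell cannot be told apart.

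Stretches of promoter from RefSeq (mouse build GRCm38.p6) show the sequences through which these genes are known to be reached. They are shown for 7 of the members that hold the response element core upstream of the start and for Irf1, which holds the gamma site core there. Each stretch has 60 bases, runs 5′ to 3′ on the strand of the gene, and has the motif in capitals. Capitals mark the core GAAANNGAAA or its reverse complement TTTCNNTTTC, and in Irf1 the core TTCNNNGAA, which reads the same on both strands.
Ifit1, chr19:34640769-34640828, plus strand: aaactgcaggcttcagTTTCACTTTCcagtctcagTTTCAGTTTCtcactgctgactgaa
Ddx60, chr8:61928026-61928085, plus strand: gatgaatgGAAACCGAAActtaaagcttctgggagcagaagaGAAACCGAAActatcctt
Gbp2, chr3:142620579-142620638, plus strand: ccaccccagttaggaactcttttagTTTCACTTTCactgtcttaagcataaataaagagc
Gbp3, chr3:142559977-142560036, plus strand: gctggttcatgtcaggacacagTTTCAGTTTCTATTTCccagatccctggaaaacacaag
Gbp7, chr3:142530258-142530317, plus strand: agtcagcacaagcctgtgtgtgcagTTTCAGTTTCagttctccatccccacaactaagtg
Irgm1, chr11:48871421-48871480, minus strand: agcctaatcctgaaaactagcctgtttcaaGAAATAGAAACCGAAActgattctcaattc
Stat2, chr10:128270251-128270310, plus strand: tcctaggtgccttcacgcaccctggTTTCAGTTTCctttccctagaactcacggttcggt
Irf1, chr11:53769898-53769957, plus strand: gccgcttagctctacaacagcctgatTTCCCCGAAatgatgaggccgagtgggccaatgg

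The windows searched run from 250 bases before to 50 bases after each start in the RefSeq table, on both strands. Of the 23 measured members, 18 had an entry, and the response element core was found in 11 of these 18, or 61.1%, against 1079 of 27025 genes with an entry, or 3.99%. It was present in 7 of 12 type I members and in 4 of 4 GTPases. The Ifit1 and Ddx60 stretches each hold the core at 2 separate places. In Gbp3 and Irgm1 the capitals are 2 cores that overlap. The gamma site core was found in 4 of the 18 members, or 22.2%, namely Irf1, Irf8, Gbp7 and Ifit2, against 9.55% of all genes with an entry. No gamma site core overlapped a response element core in these 18 members. These are matches of letters and not measured binding.

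A few facts about the arrays touch what follows. Array medians lay between 5.49 and 5.55, but the distance from the lower to the upper quartile of an array ranged from 2.76 in DeltaHepKlf6 3 to 3.29 in Control 1. Bright genes therefore tended to be highest in Control 1 and lowest in DeltaHepKlf6 3. Hepatocyte markers had a mean level between 12.91 and 13.02 in every array. The 7 measured markers of exocrine pancreas had a mean level of 10.92 in Control 3 and between 4.57 and 4.93 in the other 5 arrays, so the Control 3 sample held pancreatic transcripts. Klf6 itself was 6.80, 6.09 and 5.88 across Control 1 to 3, and 5.93, 5.43 and 5.45 across DeltaHepKlf6 1 to 3. The Klf6 groups overlapped, and the difference of -0.65 ± 0.28 (SE) did not pass limma's test (Benjamini-Hochberg adjusted p = 0.998).

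The question of the study design is whether these genes differ between DeltaHepKlf6 and Control livers. None of the 23 measured members passed limma's test at an adjusted p under 0.05, where 0 of all 23332 probe sets did (0%), and the adjusted p was 0.998 for each member. At an unadjusted p under 0.05 the members counted 0 and all probe sets 750, or 3.21%. The smallest unadjusted p among members was 0.098. Of the 23 members, 15 were lower in DeltaHepKlf6, or 65.2%, beside 62.8% of all genes and 69.2% of genes brighter than the median. The median log2 difference was -0.083 over the type I members and -0.02 over the GTPases. It was -0.053 over all genes and -0.087 over genes brighter than the median. With 1 array left out at a time, the GTPase median ran from -0.30 without DeltaHepKlf6 1 to 0.23 without Control 2, and the type I median from -0.25 without Control 3 to -0.03 without Control 2. Only Irf7 had groups that did not overlap. This makes 1 member lower without overlap and 0 higher, against 3.67% and 3.05% of all probe sets.

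**Figure D1:**
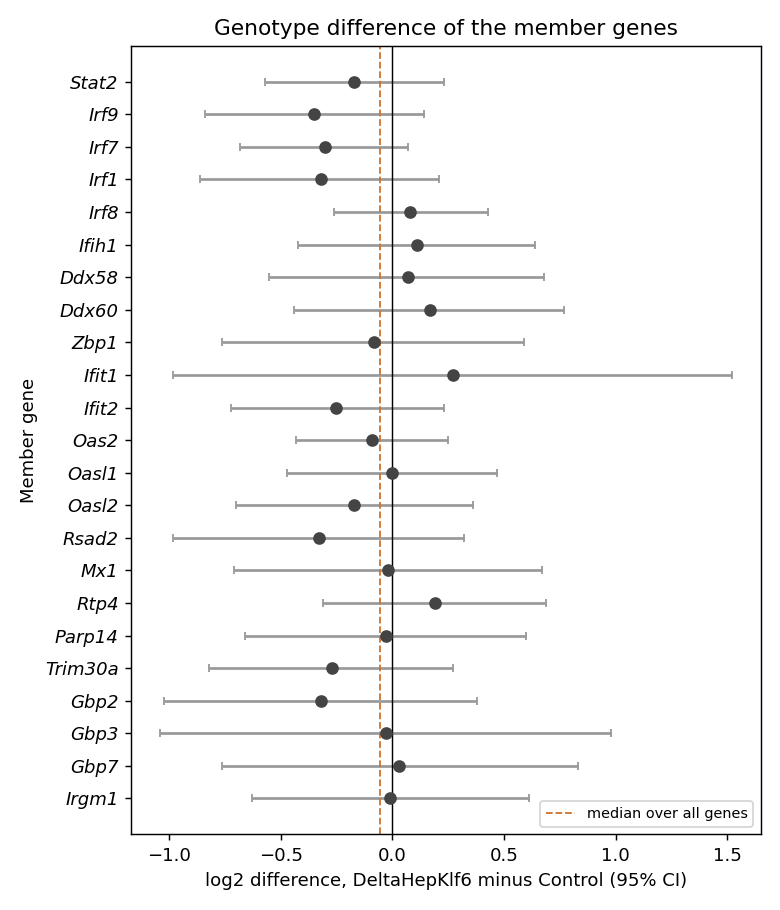
Log2 difference of each of the 23 measured members, DeltaHepKlf6 minus Control, with the 95% confidence interval of the limma fit (3 arrays in each group); the dashed line is the median over all genes, -0.053. All 23 intervals include 0, and the interval of Ifit1 is the widest, from -0.98 to 1.52.

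While the genotypes did not separate, the mice did. A pair of livers, Control 2 and DeltaHepKlf6 1, had the highest values of many members, although they come from different groups. For 11 of 23 members, or 47.8%, these 2 arrays held the highest 2 values, in either order. The lead over the third array was often narrow. It was at least 0.5 in 3 members, Gbp3, Ifit1 and Gbp7. In Trim30a it was 0.05, in Parp14 0.09, in Gbp2 0.10, in Ifit2 0.11 and in Ifih1 0.14. Over all 14860 genes the same 2 arrays were highest in 6.54%, and over the 7429 genes brighter than the median in 8.99%. The pair that most often led over all genes was Control 1 with DeltaHepKlf6 2, at 28.0%, and it led in 3 of the 23 members. The single highest value lay in Control 2 for 9 members and in DeltaHepKlf6 1 for 7, and over all genes in 10.5% and 13.9%. These arrays were singled out after their values were seen, so the counts are given as a description with no test. Between 11 and 14 of the 23 members had this pair on top with any of the other 4 arrays left out. Leaving out an array outside the pair cannot lower this count or the share of all genes, so it is no check of the pair. The count was 14 without Control 1, where the share of all genes was 11.8%, 12 without DeltaHepKlf6 2 (9.85%), and 11 without Control 3 (8.11%) or DeltaHepKlf6 3 (8.32%).

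**Figure D2:**
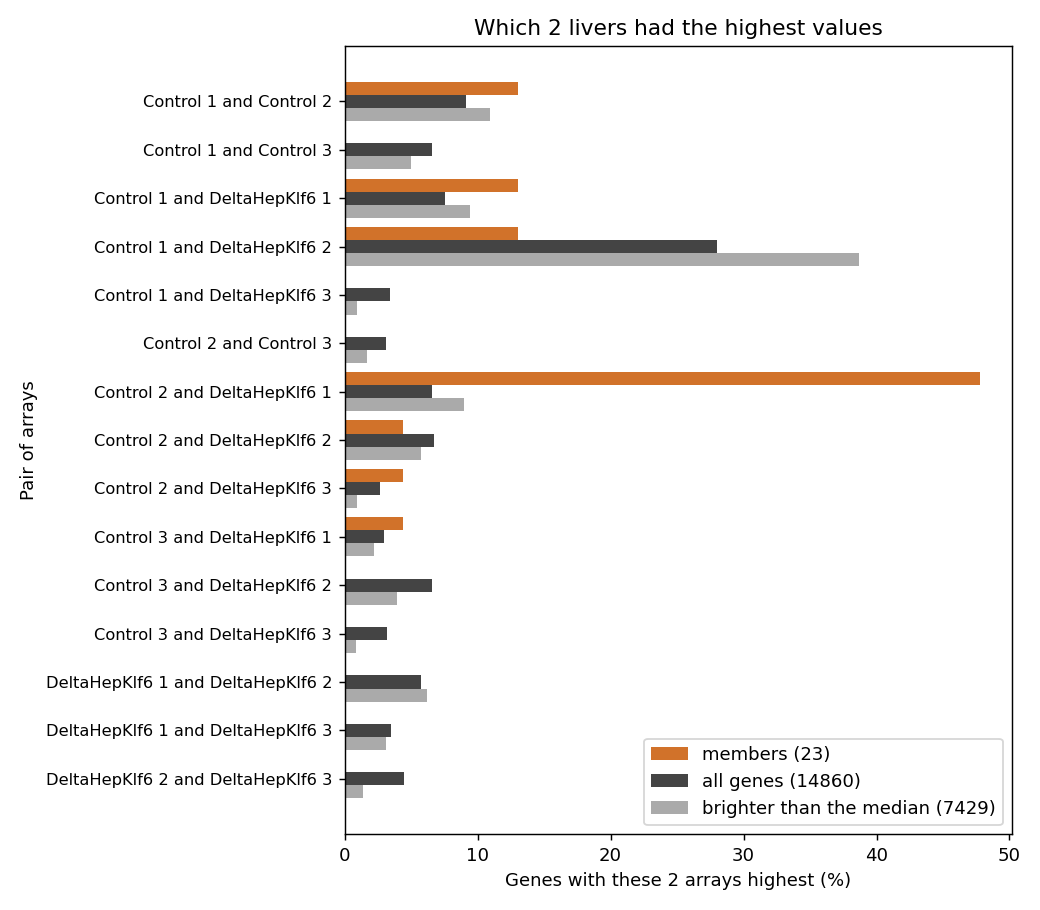
For each of the 15 possible pairs of arrays, the share of genes whose highest 2 values lie in that pair, for the 23 members, all 14860 genes and the 7429 genes brighter than the median. The members' bar stands at 47.8% for Control 2 with DeltaHepKlf6 1, where all genes stand at 6.54%.

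The type I genes and the interferon gamma GTPases were compared array by array, each gene taken relative to its own mean of the 6 arrays. The median deviation of the 17 type I genes was 0.11, 0.23 and -0.25 across Control 1 to 3, and 0.25, -0.06 and -0.30 across DeltaHepKlf6 1 to 3. For the 4 GTPases it was -0.23, 0.63 and -0.23 in the controls and 0.28, -0.10 and -0.31 in DeltaHepKlf6. The medians of both sets thus stood highest in Control 2 and DeltaHepKlf6 1 and lowest in DeltaHepKlf6 3. Control 3 was next lowest for both, level with Control 1 for the GTPases. The medians parted in 2 control livers. In Control 1 the type I median lay 0.34 above the GTPase median, and in Control 2 it lay below, with a difference of -0.39. The GTPases were not alike in Control 1, with Gbp3 at -0.44, Gbp7 at -0.35, Gbp2 at -0.10 and Irgm1 at 0.06. Type I genes ran there from -0.28 for Ifit1 to 0.52 for Irf9, and their median was near the 0.10 of all genes. In the other 4 arrays the medians of both sets differed by at most 0.05. The GTPases were unlike in DeltaHepKlf6 1 too, with Gbp3 at 0.73, Gbp7 at 0.47, Gbp2 at 0.10 and Irgm1 at 0.08. All genes had medians between -0.12 and 0.10. Quantile normalization of the arrays brought the type I median of Control 1 to 0.03 and that of DeltaHepKlf6 3 to -0.08, and left those of Control 2 and DeltaHepKlf6 1 at 0.22 and 0.21. The lowest type I median was then that of Control 3, at -0.23. The GTPase medians became -0.28, 0.62 and -0.23 in the controls and 0.27, -0.14 and -0.15 in DeltaHepKlf6, with Control 1 lowest.

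**Figure D3:**
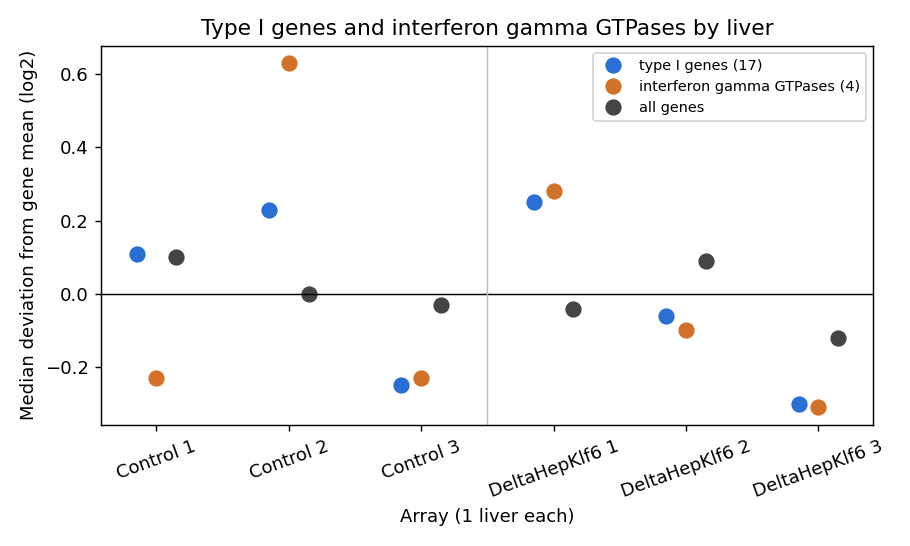
Median deviation of the 17 type I genes, the 4 interferon gamma GTPases and all 14860 genes from each gene's own mean of 6 arrays, on the log2 scale, for each liver. Type I genes and GTPases lie together except in Control 1, where the type I genes are at 0.11 and the GTPases at -0.23, and in Control 2, where they are at 0.23 and 0.63.

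**Figure D4:**
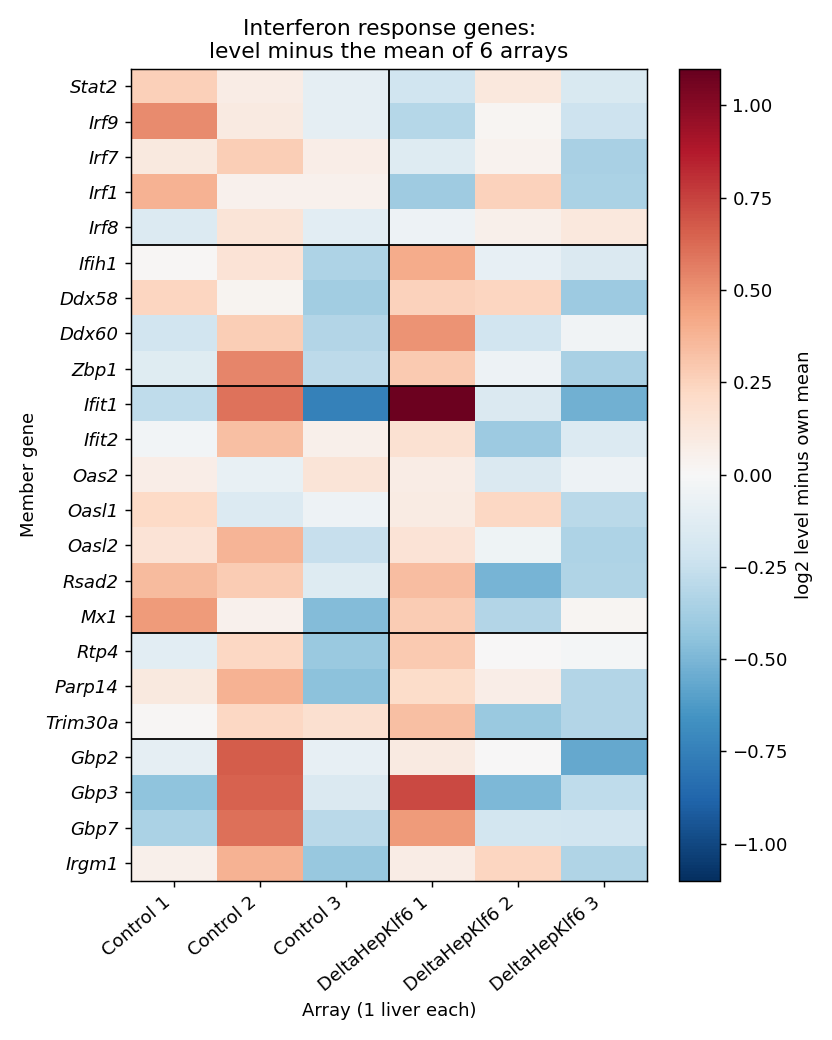
Level of each of the 23 measured members minus its own mean of the 6 arrays (log2, red above and blue below). Rows are grouped from the top as transcription factors, sensors, antiviral effectors, other induced genes and GTPases. The red cells of Ifit1, Gbp3 and Gbp7 stand in Control 2 and DeltaHepKlf6 1, with Ifit1 at 1.08 in DeltaHepKlf6 1.

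Among the transcription factors and signal transducers, the shared shift was absent or weak. Irf9, the subunit of the type I complex that binds DNA, was 8.28, 7.86 and 7.66 across Control 1 to 3, and 7.45, 7.78 and 7.53 across DeltaHepKlf6 1 to 3. Its highest value was that of Control 1 and its lowest that of DeltaHepKlf6 1, and the groups overlapped. The Irf9 difference was -0.35 ± 0.20 (SE), and -0.17 without Control 1. Stat2, a subunit of the same complex, was 7.75, 7.57 and 7.39 in the controls and 7.27, 7.61 and 7.32 in DeltaHepKlf6, again with DeltaHepKlf6 1 lowest. Irf7, the factor that amplifies type I interferon production, was 5.84, 6.0 and 5.80 in the controls and 5.59, 5.77 and 5.37 in DeltaHepKlf6. Every DeltaHepKlf6 value of Irf7 lay below every control value, the nearest being 5.77 and 5.80, and the difference was -0.30 ± 0.16 (SE).

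Irf1, a factor induced quickly by interferon gamma, was 6.82, 6.49 and 6.49 in the controls and 6.05, 6.69 and 6.09 in DeltaHepKlf6. DeltaHepKlf6 1, high for Gbp3 and Gbp7 but near the mean of the 6 arrays for Gbp2 and Irgm1, was the lowest liver for Irf1. The Irf1 difference was -0.32 ± 0.22 (SE), -0.53 without DeltaHepKlf6 2 and -0.21 without Control 1 or DeltaHepKlf6 1. Irf8, a factor of myeloid cells that interferon gamma also induces, varied least of all members, with a range of 0.29 over the arrays and a difference of 0.08 ± 0.14 (SE).

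Of the 4 members that sense foreign nucleic acid or belong to that pathway, 3 had Control 2 and DeltaHepKlf6 1 on top. Ifih1, which encodes the RNA sensor MDA5, was 8.78, 8.92 and 8.43 in the controls and 9.18, 8.68 and 8.61 in DeltaHepKlf6. Ddx60, a helicase of the same pathway, was 4.47, 4.95 and 4.36 in the controls and 5.17, 4.47 and 4.64 in DeltaHepKlf6. Zbp1, a sensor of nucleic acids in the left-handed Z form that can start cell death, was 6.17, 6.84 and 6.01 in the controls and 6.59, 6.24 and 5.94 in DeltaHepKlf6. In all of Ifih1, Ddx60 and Zbp1 the leading livers were Control 2 and DeltaHepKlf6 1. Ddx58, which encodes the RNA sensor RIG-I, had another order, with 8.11, 7.90 and 7.49 in the controls and 8.12, 8.11 and 7.47 in DeltaHepKlf6, so that Control 1 and both of DeltaHepKlf6 1 and 2 stood together. The genotype differences were 0.11 ± 0.22 for Ifih1, 0.17 ± 0.25 for Ddx60, -0.08 ± 0.28 for Zbp1 and 0.07 ± 0.25 for Ddx58 (SE).

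Of the antiviral effectors, Ifit1 varied most. The gene encodes a protein that binds foreign RNA caps, and its 2 response element cores are printed above. Its level was 7.01, 7.89 and 6.55 across Control 1 to 3, and 8.37, 7.13 and 6.76 across DeltaHepKlf6 1 to 3, a range of 1.82. DeltaHepKlf6 1 and Control 2 stood 0.76 or more above every other liver. The group mean of Ifit1 was 7.15 ± 0.68 for Control and 7.42 ± 0.84 for DeltaHepKlf6 (SD, n = 3). The difference of 0.27 ± 0.51 (SE) became -0.20 without DeltaHepKlf6 1 and -0.03 without Control 3. Ifit2, a relative near it on chromosome 19 with 4 protein-coding genes between them, had the same leading livers but a smaller range of 0.73, and the response element core was not found in its windows.

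Rsad2, the gene of viperin, was 7.97, 7.90 and 7.48 in the controls and 7.96, 7.11 and 7.29 in DeltaHepKlf6, so Control 1 joined the high livers. Mx1, a GTPase gene against influenza, was low on this scale in every liver, from 2.47 to 3.42, and highest in Control 1. The genes of the oligoadenylate synthetase family differed among themselves. Oasl2 was highest in Control 2 at 6.90, with Control 1 and DeltaHepKlf6 1 both at 6.68, Oasl1 was highest in DeltaHepKlf6 2 at 6.84, and Oas2 stayed between 4.63 and 4.93. No genotype difference in this family exceeded 0.17 in size.

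Among the other type I genes, Rtp4, Parp14 and Trim30a had Control 2 and DeltaHepKlf6 1 on top. Rtp4, a receptor transporter protein induced by interferon, was 7.45, 7.80 and 7.16 in the controls and 7.86, 7.57 and 7.55 in DeltaHepKlf6. Parp14, an ADP-ribosyltransferase, was 7.88, 8.15 and 7.32 in the controls and 7.97, 7.84 and 7.45 in DeltaHepKlf6. For Trim30a, a member of the tripartite motif family with close copies beside it, the leading values of 8.28 and 8.18 were only 0.05 above the next, that of Control 3.

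The GTPases disarm vacuoles that hold microbes, and their within-group spread was larger than that of most members. The residual SD of the fit had a median of 0.438 over the 4 GTPases, 0.283 over the 17 type I members and 0.211 over all genes, or 0.234 over genes brighter than the median. Gbp3 was 5.60, 6.69 and 5.88 in the controls and 6.77, 5.55 and 5.76 in DeltaHepKlf6. Its leading livers, DeltaHepKlf6 1 and Control 2, stood 0.81 above the third, and the genotype difference was only -0.03 ± 0.42 (SE). Gbp7 was 6.19, 7.15 and 6.24 in the controls and 7.01, 6.34 and 6.33 in DeltaHepKlf6, with a gap of 0.67 below the leading pair and a genotype difference of 0.03 ± 0.33 (SE). Leaving out Control 2 gave a difference of 0.29 for Gbp3 and 0.34 for Gbp7, and leaving out DeltaHepKlf6 1 gave -0.40 and -0.19.

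Gbp2 was high in Control 2 alone, at 6.52, with the other livers between 5.28 and 5.94. The Gbp2 difference was -0.32 ± 0.29 (SE) and -0.06 without Control 2. Irgm1, a regulator of the immunity-related GTPases, was 8.24, 8.56 and 7.76 in the controls and 8.26, 8.42 and 7.85 in DeltaHepKlf6, and its second liver was DeltaHepKlf6 2. Gbp7, Gbp3 and Gbp2 lie in a row on chromosome 3, with 0 protein-coding genes between the first pair and 1 between Gbp3 and Gbp2. They belong to a family with near-identical copies, and whether their probe sets share probes was not tested.

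**Figure D5:**
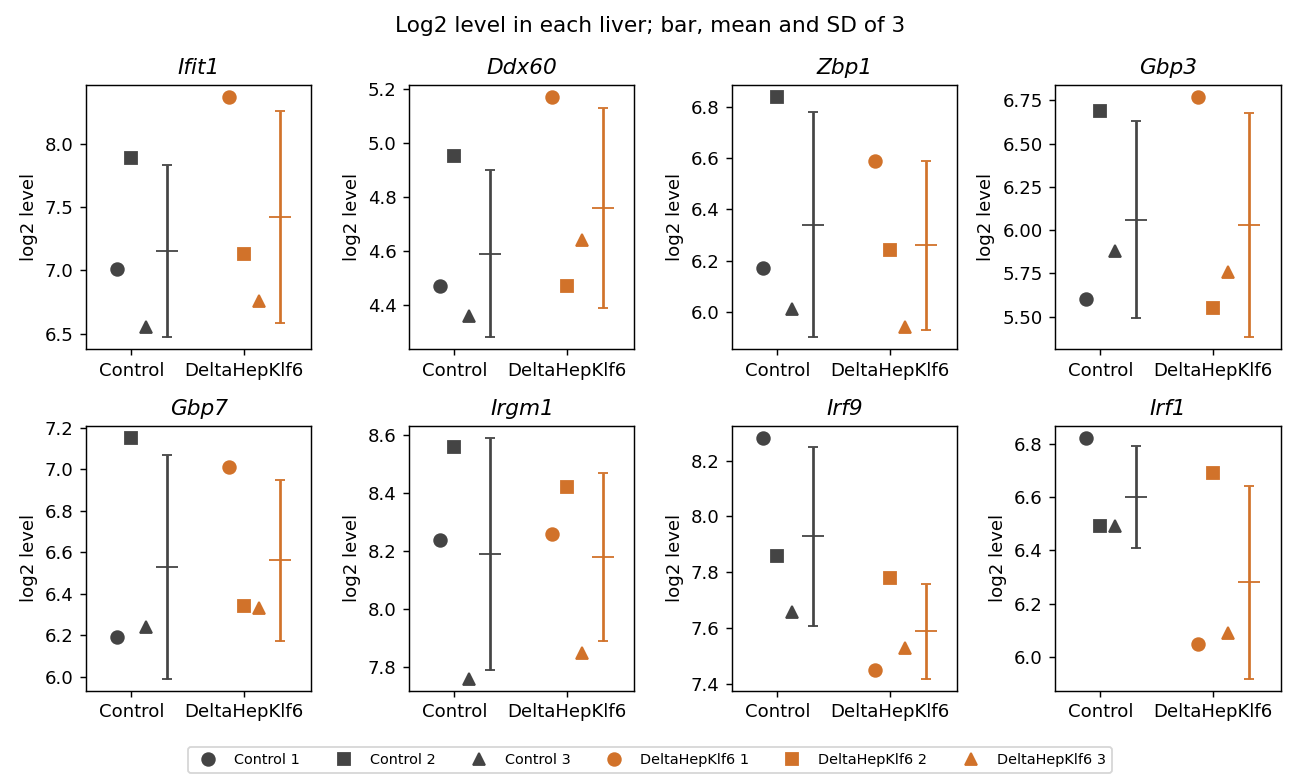
Log2 level of 8 members in each liver (circles, squares and triangles for replicates 1, 2 and 3), with the mean and SD of 3 livers beside them. For Ifit1, Ddx60, Zbp1, Gbp3 and Gbp7, the square of Control 2 and the circle of DeltaHepKlf6 1 lie above the other livers of their group, whereas for Irf9 and Irf1 the circle of DeltaHepKlf6 1 is the lowest of its group.

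The response element core was set beside the order of the arrays. Among members with a promoter entry, it was present in 7 of the 8 whose highest values lay in Control 2 and DeltaHepKlf6 1, Ifit2 being the exception, and in 4 of the 10 others, Stat2, Rsad2, Ddx58 and Irgm1. This split uses the values that singled out the pair. Gbp2, Gbp3 and Gbp7 are neighbours of the same family, and the pair led by only 0.05 in Trim30a and 0.10 in Gbp2. A link between the core and the order of the arrays was not tested. Genes outside the list did not show the same order by this core alone. Of 440 genes with the core that are no members, 7.27% had those livers on top, beside 6.58% of 11436 genes without it.

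Other genes of the pathway were read from lists. Of 9 measured interferon genes, with a mean level from 3.97 to 4.45 in the arrays, 0 had Control 2 and DeltaHepKlf6 1 as the highest livers. Ifng, the gene of interferon gamma, was 5.31, 5.56 and 5.28 in the controls and 5.32, 5.26 and 5.48 in DeltaHepKlf6. Of 6 receptor genes 1 had that pair on top, of 5 kinases and STAT factors 1, of 14 genes of nucleic acid sensing 1, and of 11 brakes on the response 1. Among further induced genes, it was 2 of 17 for type I and 4 of 10 for interferon gamma targets, beside 6.54% of all genes. The further type I targets most often had Control 1 highest, in 9 of 17 (52.9%), beside 34.8% of all genes and 44.3% of genes brighter than the median. Of those brighter genes with a range of at least 0.5 the share was 53.0%, so this count is near the background. Control 1 with Control 2 led in 6 of 17, beside 9.1% of all genes and 10.9% of genes brighter than the median. Gvin1, a very large GTPase gene, was 6.68, 8.09 and 6.66 in the controls and 7.93, 6.62 and 6.55 in DeltaHepKlf6. Cxcl9, a chemokine gene that attracts T cells, was 6.58, 7.93 and 6.62 in the controls and 7.24, 7.09 and 6.54 in DeltaHepKlf6. Ifng, Gvin1, Cxcl9 and Tgtp1 were picked after their values were seen. Cxcl10, another chemokine gene, had its highest value of 8.13 in Control 1 and not in the livers that led for Cxcl9.

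For the genotype contrast, 0 genes of these 7 pathway lists passed limma's adjusted test. The counts of lower genes below stand beside 62.8% lower among all genes and 69.2% among genes brighter than the median. The median log2 differences of these backgrounds were -0.053 and -0.087. List medians were 0.077 for ligands, -0.002 for receptors, -0.097 for kinases and STAT factors and -0.098 for sensing genes. They were -0.13 for brakes, -0.083 for further type I targets and -0.14 for further interferon gamma targets. Markers of macrophages and Kupffer cells were lower in 12 of 12, with a median of -0.445, and neutrophil markers in 6 of 7, with a median of -0.517. Lower genes numbered 4 of 4 for B cell, 7 of 11 for T and NK cell, 5 of 7 for endothelial and 4 of 6 for stellate markers. They numbered 2 of 3 for bile duct, 2 of 6 for hepatocytes and 3 of 5 for either dendritic list. Pancreas markers, high in Control 3 alone, were lower in 7 of 7. The median deviation in Control 1 and DeltaHepKlf6 3 was 0.46 and -0.63 for macrophage and 0.82 and -0.75 for neutrophil markers. For genes brighter than the median it was 0.17 and -0.24. The part of any cell type, or of the spread of the arrays, in the lists was not tested. In the ligand list 3 of 9 genes were lower in DeltaHepKlf6. The list was led by unadjusted p by Ifna11, higher by 0.59 ± 0.18 (SE), and Ifnz, higher by 0.61 ± 0.31. Ifna11 was dim, from 1.39 in Control 3 to 2.36 in DeltaHepKlf6 3. These levels lie below the array medians of olfactory receptor genes, 3.10 to 3.29. In the receptor list 3 of 6 were lower, with Ifnlr1 at 0.11 ± 0.13 and Ifngr1 at -0.15 ± 0.22. All 5 measured kinases and STAT factors were lower, with Stat3 at -0.28 ± 0.21 and Jak1 at -0.18 ± 0.16. Of the sensing genes 12 of 14 were lower, with Mavs, the adaptor that RIG-I and MDA5 share, at -0.55 ± 0.28 and Ikbke at -0.31 ± 0.23. Of the brakes 8 of 11 were lower, with the phosphatase gene Ptpn6 at -0.50 ± 0.32 and Samhd1 at -0.26 ± 0.19. The further type I targets were lower in 11 of 17, with Ifi27l2a at 0.41 ± 0.15 and Lgals3bp at -0.78 ± 0.36, and the further interferon gamma targets in 8 of 10, with Cxcl10 at -0.81 ± 0.39 and Gbp5 at -0.24 ± 0.18. Limma's adjusted p was 0.998 for each gene named in this paragraph.

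Markers of immune and other cells were read beside the shift. T and NK cell markers, 11 of 12 measured, had a mean level of 4.57, 4.81 and 4.64 across Control 1 to 3, and 4.60, 4.66 and 4.48 across DeltaHepKlf6 1 to 3, with Control 2 highest, and 2 of the 11 had the pair on top. Macrophage and Kupffer cell markers, all 12 measured, were at 7.97, 7.67 and 7.49 in the controls and 7.37, 7.59 and 6.83 in DeltaHepKlf6, with 0 of 12 led by that pair. Plasmacytoid dendritic cells are known as a strong source of type I interferon. The 5 of 6 measured markers of these cells were at 5.38 to 5.58 in the controls and 5.34 to 5.49 in DeltaHepKlf6, with 0 of 5 led by the pair. Conventional dendritic cell, B cell, neutrophil, endothelial, stellate, bile duct and pancreas markers also had 0 members led by the pair. Hepatocyte markers had 1 of 6. The part of any cell type in the shift was not tested. The exocrine pancreas transcripts stood in Control 3, a liver that was among the lowest for the members. The part of these transcripts in the members' values was not tested. The pair led in 11 of 23 members with and without Control 3, but leaving out that array could not lower the count.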

How the data were processed

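The authors deposited 1 table of log2 expression values with 23332 probe sets for 6 arrays, rounded to 2 decimals, from 0.65 to 14.35. Per the submitters' processing notes, the tools were Affymetrix Expression Console, RMA and limma, with versions, roles and order not given. RMA compresses differences of dim genes, and detection was not assessed. No genome build was named for the platform. Gene names came from the platform annotation: 14996 probe sets named 1 gene, 1019 several, and 7317 had no name here. For genes with several sets the brightest by mean of the 6 arrays was used. Where arrays were ranked within a gene, equal values were placed in array order, controls first.

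All probe sets were fitted with limma 3.58.1 in R 4.3.3 (lmFit, eBayes, DeltaHepKlf6 minus Control, no covariate), with Benjamini-Hochberg adjustment over all of them and calls at an adjusted p under 0.05. The fit was tested on simulated data. Standard errors and 95% intervals are those of the moderated fit, and SDs are over 3 mice, and this number sets the precision. Every array differed from the others (pairwise r from 0.953 to 0.974), and columns of other samples numbered 0. Alternatives were an intensity trend, filters on dim probe sets, quantile normalization, equal medians, array weights, the replicate number as a block and leaving out each array. Named genes are Klf6, all members, at most 2 of each pathway list by unadjusted p, and others said to be picked later. Members, lists and the comparison of arrays were chosen with earlier results of these data known. Promoters came from RefSeq, GRCm38.p6, and were searched with Python 3.11.15.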

Additional observations from a re-analysis of the deposited data

How the results depend on the processing

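No probe set and no member was called under any alternative, and the lowest adjusted p of a member was 0.64. Probe sets at an unadjusted p under 0.05 numbered 444 and 233 without the dimmest 25% and 50% of sets, where fewer were tested, and from 674 to 1797 with 1 array left out, the highest without DeltaHepKlf6 2. Members at that level numbered 1 of 23 with array weights, where 4.79% of all probe sets did, and 0 to 2 with 1 array left out, the highest without DeltaHepKlf6 1 (3.42% of probe sets) and without DeltaHepKlf6 2 (7.7%). Of the 23 members, 11 kept the sign of their difference under all settings run and 12 did not. With 1 array left out the range was -0.20 to 0.64 for Ifit1, -0.07 to 0.22 for Ifih1, -0.10 to 0.28 for Ddx58, -0.04 to 0.34 for Ddx60, -0.11 to 0.16 for Oasl1, -0.27 to 0.21 for Mx1, -0.26 to 0.15 for Parp14, -0.25 to 0.17 for Zbp1, -0.40 to 0.29 for Gbp3, -0.19 to 0.34 for Gbp7 and -0.22 to 0.18 for Irgm1. The sign also turned with quantile normalization for Parp14 (0.07) and Irgm1 (0.07), with equal medians for Irgm1 (0.01), and with array weights for Mx1 (0.10), Gbp7 (-0.05) and Irf8 (-0.01); the cause was not tested. Members lower in DeltaHepKlf6 numbered 11 to 21 with 1 array left out. The count led by Control 2 and DeltaHepKlf6 1, whose settings were added after seeing the data, was 10 of 19 without the dimmest 50% (8.39% of genes), 11 of 23 with quantile normalization (4.85%) and 12 with equal medians (6.59%). With the replicate number as a block, 0 probe sets were called, as without it. Arrays of equal number deviated from their group means with correlations of -0.133, -0.167 and 0.21 across probe sets, so the numbers were not taken to pair the mice.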

Other observations

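All genes were ordered by how far Control 2 and DeltaHepKlf6 1 stood above the third liver. In 17 of 14860 genes, or 0.114%, the gap was at least 0.5, and 3 of these were members, Gbp3, Ifit1 and Gbp7. The other 14 pairs of arrays had between 6 and 52 such genes and 0 members. This pair was singled out from the members' values, so finding members here is no check of it. The largest gap was that of Ces1g, a carboxylesterase gene of hepatocytes, with 9.39 in Control 2, 9.07 in DeltaHepKlf6 1 and 6.92 to 7.25 in the other livers, followed by Gvin1 with a gap of 1.25. Genes on none of the interferon lists stood among them as well, such as Mme, a membrane metalloendopeptidase (gap 0.70), Atp10d, a lipid flippase (0.68), Nox4, an NADPH oxidase (0.62), and Thrsp, a gene of lipid synthesis (0.50). Dim genes did too, among them the chemosensory receptor genes Vmn1r74 (0.73), Olfr938 (0.61) and Olfr582 (0.59) and Dnajc17 (0.75). Dnajc17 lay between 1.36 and 4.73. Cxcr6, a chemokine receptor of T and NK cells, had 6.05 in Control 2, 5.99 in DeltaHepKlf6 1 and 4.33 to 5.48 in the others. These genes were picked after their values were seen, and the gap is a description with no test. The strain of the mice is not among the labels, and whether the 6 mice shared a genetic background was not tested.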
